A study of Homo sapiens with 7 samples.

Results

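The nuclear genes for subunits of the oxidative phosphorylation complexes were examined in BHT-101, a cell line from a human anaplastic thyroid cancer, with and without intact ASH1L, a histone methyltransferase. The members are the rows whose gene symbols start with NDUFA, NDUFB, NDUFC, NDUFS, NDUFV, UQCR or ATP5, the rows of SDHA to SDHD and CYC1, and the COX4 to COX8 genes. They number 83 of the 13142 genes measured. By complex, 39 belong to complex I, 4 to complex II, 10 to complex III, 12 to complex IV and 18 to complex V. The symbols also take in 8 rows that are not structural subunits of these complexes: the antisense gene NDUFB2-AS1, the pseudogenes ATP5EP2 and COX6A1P2, and ATP5S, ATP5SL, COX7A2L, NDUFA4L2 and UQCRHL. The remaining 75 are structural. NDUFA4 is counted with complex I by its symbol but is known as a subunit of complex IV.

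RNA-seq was made from 3 biological replicates of wild-type cells (WT1 to WT3) and from 4 ASH1L knockout clones (KO1 to KO4) with 1 library each. Translation ends early in every clone: at residue 413 (KO1), 610 (KO2) or 2129 (KO3) on both alleles, and at residues 2169 and 2174 in KO4. All cells, wild type included, grew in DMEM with 10% serum and 1 mM sodium pyruvate. Each clone is a single isolate without a replicate library, no clone with intact ASH1L was analysed, and so loss of ASH1L and other differences between clones cannot be told apart. Of 7 thyroid markers PAX8 alone had a row, at log2 RPKM of at most -1.2 in any library, below the level used for testing, while all 5 epithelial markers had rows, with a summed log2 RPKM, mostly from keratins, of 8.93 to 9.19 in WT and 7.87 to 9.17 in the clones. Of these, EPCAM, KRT8, KRT18 and KRT19 were above 0 in every library, whereas CDH1 was at 0.48 to 0.78 in WT, at 1.96 in KO2 and at -5.86, -2.20 and -2.83 in KO1, KO3 and KO4. Of 10 leukocyte and 9 fibroblast or endothelial markers 2 and 4 had rows, with summed log2 RPKM of 3.18 to 3.57 and 5.68 to 5.79 in WT and of -1.06 to 1.58 and 4.35 to 6.13 in the clones. CD3D was at 3.05 to 3.39 in WT and at -7.75, -0.96, -2.51 and -0.47 in KO1 to KO4. PDGFRA was at 3.09 to 3.33 in WT and at -6.82, 2.37, 2.37 and -1.75 in KO1 to KO4. CD14, COL1A1, LUM and PECAM1 had clones on both sides of the WT range. The part of these marker differences in the results below was not tested. ASH1L stood at log2 RPKM 3.22 to 3.34 in WT, between 2.42 and 2.69 in KO1 to KO3, and at 3.74 in KO4. Transcripts with an early stop can persist, and these levels therefore do not check the genotypes.

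Oxidative phosphorylation couples electron transfer to ATP synthesis in the mitochondrial inner membrane. Complex I takes electrons from NADH and complex II takes them from succinate, complex III passes them from ubiquinol to cytochrome c, complex IV hands them to oxygen, and complex V uses the proton gradient that I, III and IV build to make ATP. Complex II is encoded in the nucleus alone. The other complexes also hold subunits encoded in mitochondrial DNA, so their assembly draws on both genomes. Nuclear respiratory factor NRF1, ETS factors such as GABPA, and YY1 are known regulators of many nuclear subunit genes.

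The promoters of 4 members that the results turn on are shown first: SDHD and ATP5L, the members that passed the test, and NDUFB2 and ATP5C1, which had the next smallest p-values. Each runs from 250 bases before to 50 bases after the RefSeq start (GRCh38.p14), in the direction of transcription. Capitals mark matches, on either strand, to the NRF1 letters CGCATGCGC, the ETS letters CCGGAAGT or the YY1 letters AAGATGGCG. The ETS match of SDHD reads on the opposite strand, and the NRF1 runs match on both strands, shifted by 1 base.
SDHD, chr11:112086623-112086922, plus strand: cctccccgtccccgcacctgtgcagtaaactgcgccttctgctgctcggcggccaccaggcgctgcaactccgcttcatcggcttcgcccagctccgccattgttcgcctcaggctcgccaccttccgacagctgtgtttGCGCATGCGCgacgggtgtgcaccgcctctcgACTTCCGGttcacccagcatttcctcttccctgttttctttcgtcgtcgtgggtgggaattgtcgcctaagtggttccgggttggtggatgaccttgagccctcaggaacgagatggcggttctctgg
ATP5L, chr11:118401356-118401655, plus strand: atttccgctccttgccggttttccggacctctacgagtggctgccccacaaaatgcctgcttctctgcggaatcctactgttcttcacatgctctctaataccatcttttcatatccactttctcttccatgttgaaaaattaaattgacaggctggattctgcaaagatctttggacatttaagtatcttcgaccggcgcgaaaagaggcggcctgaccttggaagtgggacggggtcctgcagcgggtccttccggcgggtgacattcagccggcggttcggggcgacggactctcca
NDUFB2, chr7:140696458-140696757, plus strand: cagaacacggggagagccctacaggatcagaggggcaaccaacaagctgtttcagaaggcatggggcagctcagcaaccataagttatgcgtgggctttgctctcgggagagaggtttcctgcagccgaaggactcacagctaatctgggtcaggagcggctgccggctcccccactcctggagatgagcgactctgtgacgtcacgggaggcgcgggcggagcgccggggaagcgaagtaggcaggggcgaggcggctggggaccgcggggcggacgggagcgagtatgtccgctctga
ATP5C1, chr10:7787927-7788226, plus strand: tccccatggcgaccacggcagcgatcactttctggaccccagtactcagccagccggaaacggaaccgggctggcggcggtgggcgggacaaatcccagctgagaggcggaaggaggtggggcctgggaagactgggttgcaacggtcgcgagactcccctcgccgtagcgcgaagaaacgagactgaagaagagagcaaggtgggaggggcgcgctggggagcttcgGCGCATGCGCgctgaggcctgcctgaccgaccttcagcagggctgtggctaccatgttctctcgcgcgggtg

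SDHD carries an NRF1 run and 1 ETS match, and ATP5C1 carries an NRF1 run. The windows of ATP5L and NDUFB2 hold none of the letters searched. RefSeq promoters were matched for 61 of the 75 structural members. Of these, 10 (16.4%) held the NRF1 letters, against 1.92% of all 35116 promoters of the same length. The ETS letters were found in 9 (14.8%, against 4.14%) and the YY1 letters in 7 (11.5%, against 1.75%). Any of the 3 occurred in 23 members (37.7%), against 7.33% of all promoters. That background was limited neither to the genes measured here nor to 1 promoter per gene, whereas each member had 1. A background of expressed genes was not tested. A match describes letters in the window and is not evidence of binding.

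In the wild-type and knockout libraries together, the structural subunits spanned a wide range of levels. Values are log2 RPKM, in which reads are divided by gene length and library size, so levels of different genes are compared per length. The highest mean over the 7 libraries was 9.12, for ATP5B, the catalytic beta subunit of ATP synthase. Complex I had the widest spread, from -1.49 for NDUFV2, the small flavoprotein subunit with an iron-sulfur cluster, to 8.52 for NDUFB9. Complex II ran from 2.65 for the membrane anchor SDHC to 6.09 for the iron-sulfur subunit SDHB. Complex III ran from 4.48 for UQCRC2 to 7.01 for the hinge protein UQCRH, complex IV from 4.80 for COX6C to 7.91 for COX8A, and complex V from 3.78 for ATP5O to 9.12. Subunits of 1 complex are built in at fixed ratios, which need not be equal. Their transcripts differed within complex V by 40.4-fold and within complex II by 10.8-fold.

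**Figure D1:**
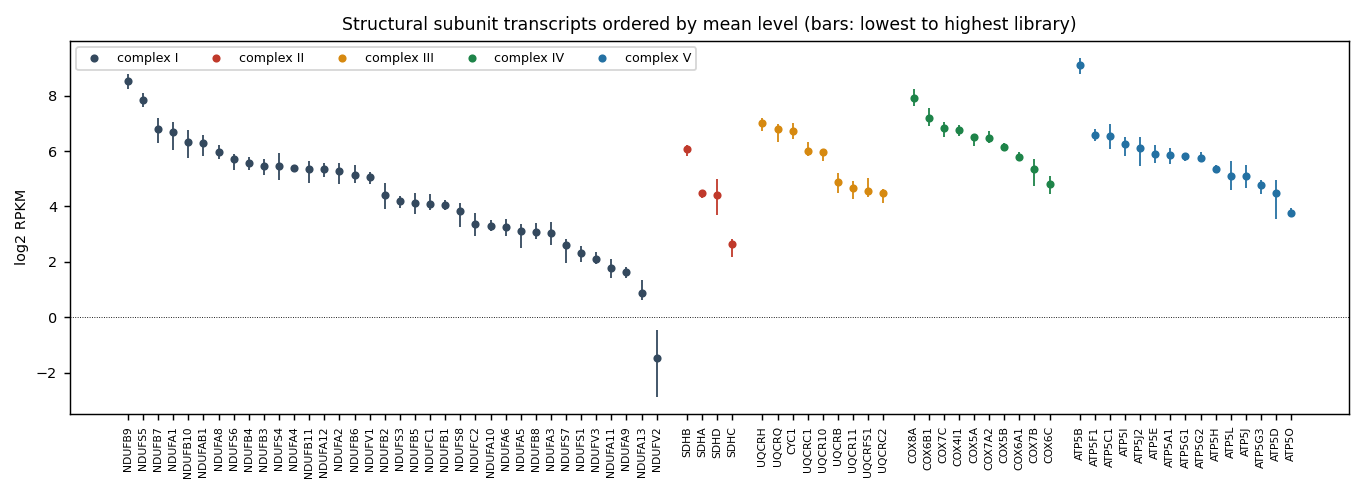
Mean log2 RPKM over the 7 libraries (vertical axis) of 74 structural members, grouped by complex and ordered by level; bars run from the lowest to the highest library. ATP5B at 9.12 is the highest and NDUFV2 at -1.49 the lowest.

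Some members share exons with other genes. The labels do not say whether counting used strand, and reads from overlapping genes cannot be told apart or may have been dropped. The 40 structural members with under 5% of their exon bases shared with another gene had a median log2 RPKM of 5.76 and a lowest value of 2.12. The 35 with 5% or more had a median of 4.79 and included NDUFV2, with 28.4% shared, and NDUFA13, with 21.0% shared and a mean of 0.88, but also NDUFB9 at 8.52 and COX8A at 7.91, the highest of complexes I and IV, with 21.0% and 34.5% shared. ATP5O, the lowest structural member of complex V, had 25.4% shared. UQCRHL, a near copy of UQCRH, and the pseudogenes ATP5EP2 and COX6A1P2 resemble their parent genes in sequence, so their levels are uncertain.

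A level above log2 RPKM 0 in at least 3 of 7 libraries was required for testing, and 81 members passed. NDUFV2, at -0.45, -1.50 and -0.70 in WT and no higher than -1.31 in any clone (lowest -2.87), did not. NDUFA4L2, a hypoxia-induced relative of NDUFA4, did not either: WT1 to WT3 stood at -1.71, -1.27 and -0.37 and the clones spanned -2.7 to -1.27. Just inside the limit were NDUFB2-AS1, with a mean of 0.09, ATP5S and NDUFA13.

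When the 4 clones were treated as knockout replicates, the transcripts of SDHD and ATP5L fell and no member rose (limma over all genes, adjusted p under 0.05). These are 2 of the 81 members, where 0.412% of all 11154 tested genes passed in either direction, 0.242% lower and 0.17% higher. Most other members lay slightly below WT: the mean of the clones was below the WT mean in 60 of 81 (74.1%), against 53.0% of all genes. All 4 clones were below all 3 WT libraries in 24 members (29.6%, against 10.1% of all genes). No member had all clones above all WT libraries, a pattern shown by 8.88% of all genes. At an unadjusted p under 0.05, 17 members were lower and 1 higher, against 8.59% and 7.13% of all genes. The members' median log2 difference was -0.16, against -0.02 for all tested genes. Leaving out 1 library could end both calls. Without WT1, WT2 or WT3 the limma adjusted p was 0.269, 0.348 or 0.263 for SDHD and 0.219, 0.287 or 0.210 for ATP5L, without KO4 it was 0.0917 and 0.0671, and without KO1 it was 0.0677 for SDHD. The log2 fold changes in these fits lay between -0.98 and -0.88. In bulk RNA, fewer cells of a kind and less RNA per cell cannot be told apart.

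**Figure D2:**
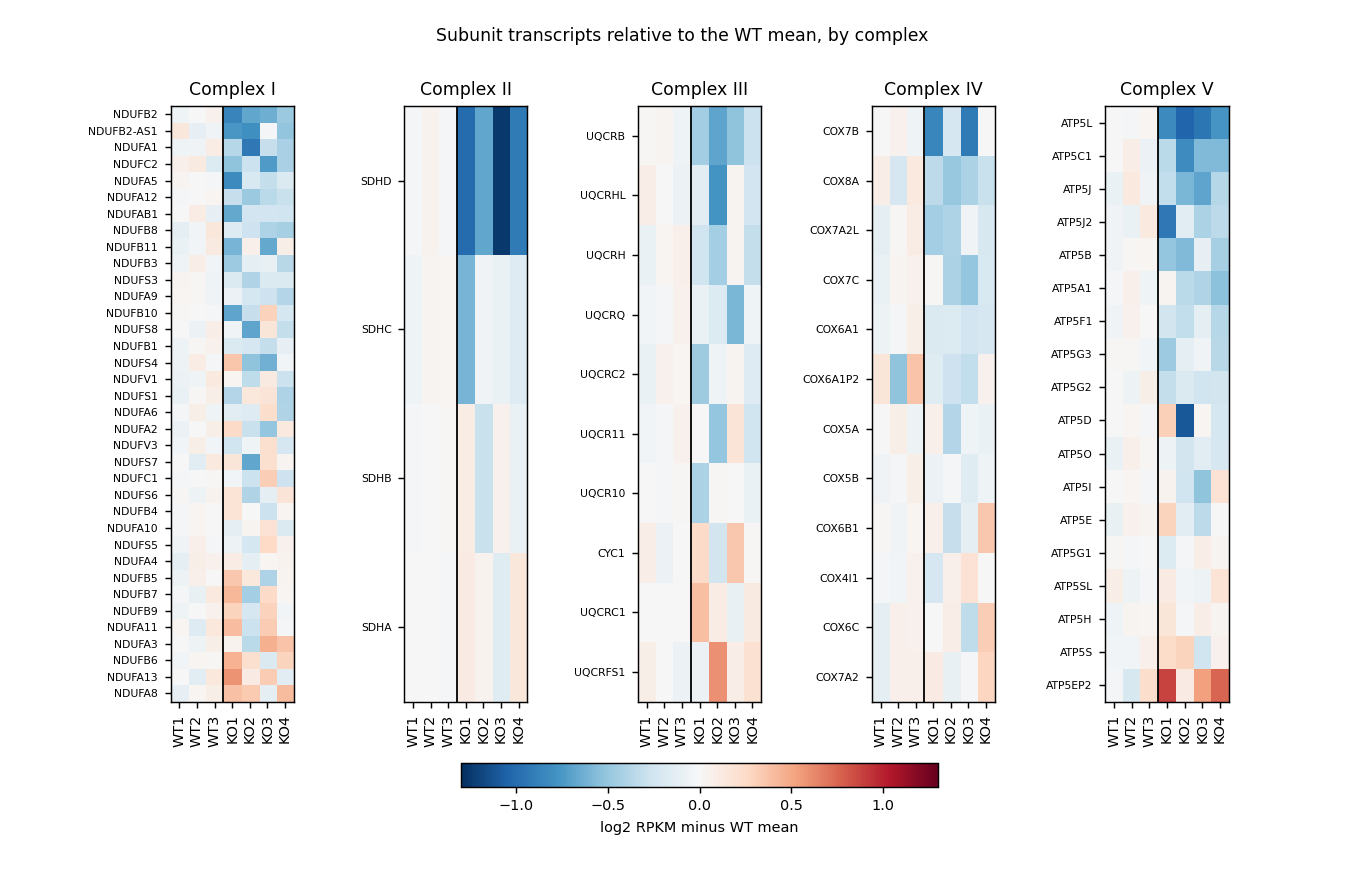
Difference of each library from the WT mean in log2 RPKM (colour) for 80 of the 81 tested members, by complex and ordered within each by the mean of the clones. The 3 WT columns are mostly pale, COX6A1P2 being the clearest exception, while SDHD and ATP5L are blue in all 4 clones and many other rows change colour from clone to clone.

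Complex II has a catalytic part, the flavoprotein SDHA and the iron-sulfur protein SDHB, and a pair of membrane anchors, SDHC and SDHD. SDHD (chr11:112086773-112120013, plus strand, hg38) had log2 RPKM values of 4.93, 4.99 and 4.92 in WT1 to WT3 and of 3.95, 4.27, 3.70 and 4.03 in KO1 to KO4. Every clone lay below every WT library. The mean dropped from 4.95 ± 0.04 (SD, n = 3) to 3.99 ± 0.24 (SD, n = 4), a 1.95-fold lower level (log2 fold change -0.96 ± 0.14 SE, limma adjusted p = 0.0493). The other anchor, SDHC, was at 2.73, 2.82 and 2.80 in WT and at 2.18, 2.74, 2.70 and 2.62 in the clones, so that KO1 stood apart and KO2 lay within the WT range. SDHA was at 4.44 to 4.46 in WT and 4.30 to 4.60 in the clones. SDHB was at 6.10 to 6.13 in WT and 5.82 to 6.21 in the clones. The groups overlapped in both, and their log2 fold changes of 0.03 ± 0.11 and -0.06 ± 0.12 (SE) did not pass. SDHD had the lowest difference of the 4. SDHD shares 12.2% of its exon bases with other genes, among them TIMM8B.

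**Figure D3:**
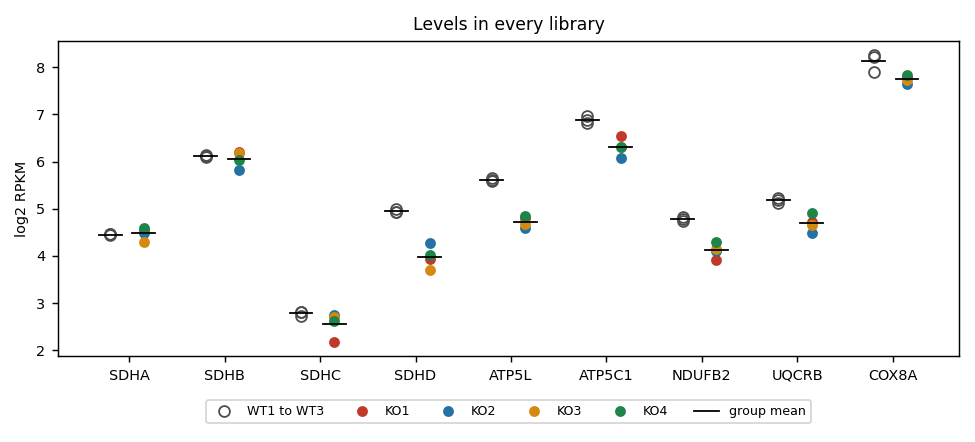
Log2 RPKM (vertical axis) in each library for the complex II members and for ATP5L, ATP5C1, NDUFB2, UQCRB and COX8A; open circles are WT1 to WT3, coloured circles KO1 to KO4, and lines are group means. The groups do not overlap in SDHD, ATP5L, ATP5C1, NDUFB2, UQCRB and COX8A and overlap in SDHA, SDHB and SDHC.

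Complex V is a rotary motor with a catalytic F1 head, a c ring in the membrane, a peripheral stalk that holds the head still, and small membrane subunits. ATP5L (now named ATP5MG, chr11:118401154-118431496, plus strand) encodes subunit g, one of the small membrane subunits where ATP synthase dimers form. It was at 5.61, 5.60 and 5.65 in WT1 to WT3 and at 4.79, 4.59, 4.68 and 4.85 in KO1 to KO4. The clones lay close to each other and all below WT. The mean dropped from 5.62 ± 0.03 (SD, n = 3) to 4.73 ± 0.12 (SD, n = 4), a 1.85-fold lower level (log2 fold change -0.89 ± 0.10 SE, limma adjusted p = 0.0391).

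The F1 head was lower on average in all 5 of its members, as were 53.0% of all genes, with none past the threshold. The gamma subunit ATP5C1, the central rotor shaft, was at 6.88, 6.97 and 6.81 in WT and at 6.53, 6.07, 6.31 and 6.31 in the clones (log2 fold change -0.58 ± 0.13 SE, limma adjusted p = 0.11). ATP5B, the catalytic beta subunit, was at 9.31, 9.37 and 9.37 in WT and at 8.85, 8.78, 9.24 and 8.92 in the clones (-0.40 ± 0.13 SE, limma adjusted p = 0.207). Neither gene's groups overlapped. The delta subunit ATP5D varied most between clones, at 4.94, 3.54, 4.66 and 4.41 in KO1 to KO4 against 4.61 to 4.66 in WT. Its log2 fold change of -0.25 ± 0.31 (SE) turned to 0.04 without KO2. The alpha subunit ATP5A1 and the epsilon subunit ATP5E were at differences of -0.31 and -0.05.

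In the peripheral stalk 3 of 4 members were lower on average (53.0% of all genes were) and 1, ATP5H (subunit d), was higher, at 0.07. ATP5F1 (subunit b) was at 6.68 to 6.79 in WT and 6.36 to 6.61 in the clones, without overlap. ATP5J, coupling factor 6, was at 5.28, 5.50 and 5.33 in WT and at 5.05, 4.78, 4.68 and 5.0 in the clones (-0.50 ± 0.13 SE, limma adjusted p = 0.148). It shares 23.0% of its exon bases with other genes, among them GABPA. The 3 c ring genes, ATP5G1, ATP5G2 and ATP5G3, encode the same mature protein from different precursors. Their log2 fold changes were -0.02, -0.25 and -0.25, and the groups did not overlap in ATP5G2 and ATP5G3. Of the other membrane subunits, ATP5J2 (subunit f) was at 6.30 to 6.5 in WT and 5.45, 6.24, 5.97 and 6.04 in KO1 to KO4, and ATP5I (subunit e) was at 6.32 to 6.37 in WT and 5.82 to 6.53 in the clones. KO1 was the lowest in ATP5J2 and KO3 in ATP5I.

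Taking the 15 structural members of complex V, 14 had a mean below WT (93.3%, against 53.0% of all genes). All clones were below all WT libraries in 8 (53.3%, against 10.1%). Over all 18 members of complex V the shares were 77.8% and 44.4%, since the non-structural rows were higher on average. ATP5S and ATP5SL were at differences of 0.08 and 0.05. The pseudogene ATP5EP2 lay farther above WT. It was at 3.72, 3.53 and 3.97 in WT and at 4.61, 3.84, 4.27 and 4.50 in the clones, a log2 fold change of 0.57 ± 0.21 (SE) that did not pass (limma adjusted p = 0.253). KO2 lay within the WT range there. ATP5E, the gene it derives from, was at 5.83 to 5.97 in WT and 5.57 to 6.21 in the clones.

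Complex I is the largest complex, with core subunits that carry the electrons and many accessory subunits around them. None of its 37 tested members passed (limma). At an unadjusted p under 0.05, 7 were lower and 0 higher, against 8.59% and 7.13% of all genes. Of the 7 nuclear core subunits 6 were tested, and all 6 had a mean below WT, as did 53.0% of all genes. In 1 core subunit, NDUFS3, all clones were below all WT libraries (10.1% of all genes), at 4.28 to 4.37 in WT and 3.94 to 4.15 in the clones.

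Of the 29 accessory subunits of complex I 20 had a mean below WT, and in 10 all clones were below all WT libraries. Of all genes, 53.0% and 10.1% did so. NDUFB2, of the membrane arm, was lowest, at 4.73, 4.78 and 4.83 in WT and at 3.92, 4.11, 4.14 and 4.30 in the clones (log2 fold change -0.66 ± 0.12 SE, limma adjusted p = 0.0700). It shares 35.9% of its exon bases with other genes, among them BRAF and NDUFB2-AS1, which was at 0.28 to 0.53 in WT and -0.41 to 0.36 in the clones. NDUFA12, an accessory subunit of the matrix arm, was at 5.53, 5.54 and 5.57 in WT and at 5.24, 5.06, 5.20 and 5.25 in the clones. NDUFC2, of the membrane arm, was at 3.72, 3.77 and 3.48 in WT and at 3.14, 3.38, 2.92 and 3.24 in the clones. NDUFA1, a small membrane-arm subunit encoded on the X chromosome, was at 6.91, 6.92 and 7.06 in WT and at 6.59, 6.03, 6.66 and 6.53 in the clones. The groups did not overlap in these 3, whose limma adjusted p-values were 0.156, 0.181 and 0.209. The highest mean difference in complex I was 0.25, for NDUFA8, at 5.72 to 5.90 in WT and 6.21, 6.17, 5.70 and 6.23 in KO1 to KO4. There KO3 alone was not above WT. NDUFB9, the most abundant complex I transcript, was at 8.42 to 8.53 in WT and 8.25 to 8.78 in the clones.

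In complex III the medians of the core and the small supernumerary subunits differed in sign for the mean of the clones. These sets were formed after the values were seen. The 4 core members had a median difference of 0.11, with the cytochrome c1 gene CYC1 at 0.09, the Rieske iron-sulfur protein UQCRFS1 at 0.20, UQCRC1 at 0.13 and UQCRC2 at -0.16. The 5 supernumerary members had a median of -0.23, and all 5 means were below WT, as were 53.0% of all genes. In KO1 to KO4 the core medians were 0.09, 0.02, 0.06 and 0.06. The supernumerary medians were -0.26, -0.44, 0.01 and -0.25, so the sign did not differ in KO3. No member passed (limma; 1 lower at an unadjusted p under 0.05, against 8.59% of all genes). The difference between both sets was not tested. UQCRB, a ubiquinone-binding subunit, was lowest, at 5.19, 5.22 and 5.12 in WT and at 4.72, 4.49, 4.65 and 4.90 in the clones (log2 fold change -0.49 ± 0.12 SE, limma adjusted p = 0.140). The groups did not overlap. UQCRQ was the only other non-overlapping member, at 6.89 to 6.99 in WT and 6.34 to 6.88 in the clones. Of the 10 members of complex III, 2 (20%) thus had all clones below all WT libraries, against 10.1% of all genes. UQCRFS1 was at 4.35 to 4.51 in WT and at 4.36, 5.02, 4.51 and 4.63 in the clones, highest in KO2.

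The nuclear subunits of complex IV surround a catalytic core that is encoded in mitochondrial DNA. None of the 12 members passed (limma; 1 lower at an unadjusted p under 0.05, against 8.59% of all genes). The mean was below WT in 9 (75%, against 53.0% of all genes), and in 7 of the 10 structural members (70%). COX8A, a small subunit and the most abundant complex IV transcript, was at 8.21, 7.91 and 8.26 in WT and at 7.79, 7.63, 7.72 and 7.83 in the clones (log2 fold change -0.38 ± 0.12 SE, limma adjusted p = 0.197). All clones were below WT, but WT2 was close to them. COX6A1 did not overlap either, at 5.83 to 5.98 in WT and 5.65 to 5.72 in the clones, a narrow range. All clones were below all WT libraries in 2 of the 12 members (16.7%, against 10.1% of all genes). COX7B, on the X chromosome, was at 5.59 to 5.70 in WT and at 4.80, 5.43, 4.73 and 5.65 in the clones, so that KO1 and KO3 were low and KO4 lay within WT. COX4I1, COX6B1 and COX6C had log2 fold changes of 0.01, -0.00 and 0.02. COX7A2L, known as a supercomplex assembly factor, was at 4.09 to 4.30 in WT and 3.76 to 4.15 in the clones.

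Over the tested members the median log2 difference was -0.12 for complex I, -0.14 for II, -0.15 for III, -0.14 for IV and -0.25 for V. By clone, the median over all 81 members was -0.08, -0.24, -0.11 and -0.17 for KO1 to KO4, while the WT libraries lay at -0.02, 0.01 and 0.02. With the library medians set equal KO1 was at -0.01, within the WT range of -0.02 to 0.03. Complex V had a negative median in each clone, from -0.23 in KO4 to -0.12 in KO1. These values depended on the scaling: KO1 was at -0.05 with median centring, KO2 at -0.09 with quantile normalization and KO4 at -0.08 with the neighbours' medians subtracted. Complex III was at 0.04 in KO3 and between -0.21 and -0.11 in the other clones. With the neighbours' medians subtracted it was at -0.14 in KO3 and -0.24 in KO1, and with quantile normalization at -0.02 in KO2. Differences between complexes were not tested.

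**Figure D4:**
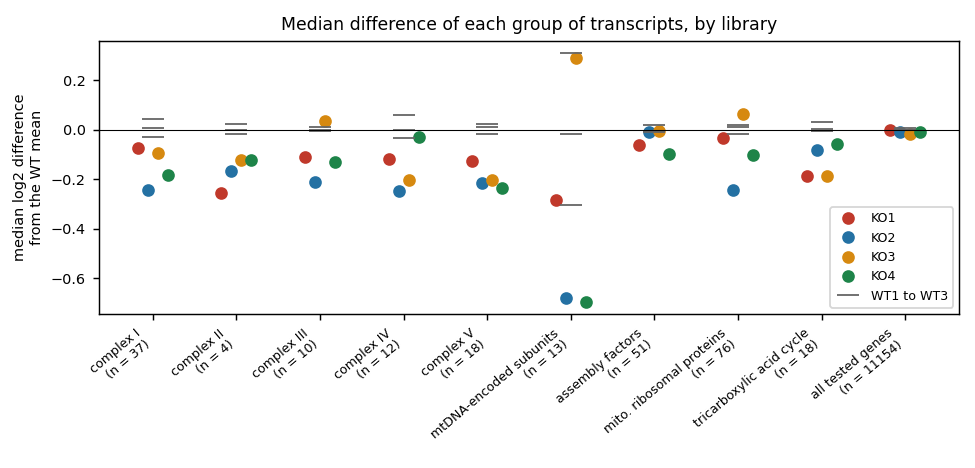
Median log2 difference from the WT mean (vertical axis) for each complex and comparison list, with coloured points for KO1 to KO4 and grey lines for WT1 to WT3. The complexes lie below 0 in nearly every clone, apart from complex III in KO3 (with median centring also not for complex I in KO1 or IV in KO4), and the mitochondrially encoded subunits run from -0.30 to 0.31 in WT.

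Single clones were then compared with WT under the assumption that a clone varies as much as WT libraries do. Counts are out of the 81 tested members. In KO1, 25 members were lower and 9 higher (limma adjusted p under 0.05), against 25.0% and 19.2% of all genes. KO2 had 27 lower and 1 higher, against 17.9% and 15.3%, KO3 had 19 lower and 4 higher, against 19.8% and 14.2%, and KO4 had 12 lower and 3 higher, against 14.5% and 10.2%. Quantile normalization gave 20 lower and 13 higher for KO1, 19 and 3 for KO2, 16 and 7 for KO3, and 9 and 5 for KO4. Median centring gave 20 and 14 for KO1 and 9 and 5 for KO4. Without WT2 the calls numbered 13, 12, 8 and 2 for KO1 to KO4, and without WT3 29 for KO4. A clone's own spread is unknown and the assumption is doubtful, since the median SD of the members was 0.07 among WT libraries and 0.22 among clones. A description by size avoids it. Members more than 1.5-fold below the WT mean numbered 12 for KO1 (14.8%, background 18.2%) and 12 for KO2 (14.8%, background 11.2%). They numbered 9 for KO3 (11.1%, background 13.7%) and 2 for KO4 (2.47%, background 10.6%). Only in KO2 was the share above the background. More than 1.5-fold above were 1, 1, 0 and 1, with backgrounds of 11.0%, 10.1%, 8.28% and 7.29%.

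The members farthest from WT differed from clone to clone. In KO1 they included SDHD at -1.0 and ATP5J2 at -0.93, with ATP5EP2 at 0.88, NDUFA13 at 0.58 and NDUFB6 at 0.45 on the high side. In KO2 they were ATP5D at -1.1, ATP5L at -1.03 and NDUFA1 at -0.93, with UQCRFS1 at 0.59, NDUFA8 at 0.34 and ATP5S at 0.29 above. In KO3 they were SDHD at -1.25, ATP5L at -0.94 and COX7B at -0.92, with ATP5EP2 at 0.53, NDUFA3 at 0.46 and CYC1 at 0.35 above. In KO4 they were SDHD at -0.92, ATP5L at -0.77 and ATP5C1 at -0.58, with ATP5EP2 at 0.76, NDUFA8 at 0.41 and NDUFA3 at 0.37 above. SDHD was among the 3 lowest in KO1, KO3 and KO4, and ATP5L in KO2, KO3 and KO4.

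Many of these differences moved with those of neighbouring genes on the chromosome. For each member the median difference of the other tested genes within 5 Mb was taken. Around SDHD, 32 neighbours had medians of -0.65, -0.68, -0.70 and -0.74 in KO1 to KO4. Around ATP5L, 50 neighbours had -0.59, -0.56, -0.56 and -0.71. SDHD and ATP5L lie on the same arm of chromosome 11, so they are not independent observations. With the neighbours' median subtracted, the log2 fold change of SDHD was -0.27 ± 0.13 (SE, limma adjusted p = 0.433) and that of ATP5L -0.29 ± 0.11 (SE, limma adjusted p = 0.338). Neither passed, and no member did. In all, 1 gene passed in that setting.

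Other members went with their neighbours to differing degrees, and some did not. On the long arm of chromosome 7 the neighbours of ATP5J2 were at -0.71, -0.22, -0.28 and -0.33 in KO1 to KO4, and ATP5J2 was at -0.93, -0.14, -0.41 and -0.34. NDUFA5, on the same arm, was at -0.83, -0.20, -0.31 and -0.18 with neighbours at -0.72, -0.23, -0.32 and -0.44. NDUFB2, also there, was near its neighbours in KO1 but lower than they were in KO2 and KO3: it was at -0.86, -0.68, -0.64 and -0.48, and they were at -0.73, -0.19, -0.27 and -0.36. Near the end of the short arm of chromosome 19, the neighbours of ATP5D were at 0.39 in KO1 and -0.40 in KO2, and ATP5D was at 0.31 and -1.1. NDUFS7, close by, was at 0.15 and -0.67. On chromosome 9 the neighbours of NDUFB6 were at 0.55, 0.41, 0.09 and 0.33 in KO1 to KO4, and NDUFB6 was at 0.45, 0.21, -0.19 and 0.29. On the X chromosome the neighbours of NDUFB11 were at -0.56 in KO1 and -0.58 in KO3 but 0.04 in KO2 and 0.11 in KO4, and NDUFB11 was at -0.61, -0.66, 0.06 and 0.08. UQCRB did not go with its neighbours, which were at -0.01, 0.38, -0.12 and 0.38 while UQCRB was at -0.46, -0.69, -0.53 and -0.27. ATP5EP2 lay above its neighbours by 0.78, 0.34, 0.75 and 0.59.

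Across the 81 members, the Pearson correlation between a member's difference and that of its neighbours was 0.86, 0.61, 0.75 and 0.78 for KO1 to KO4, and Spearman's rho was 0.85, 0.56, 0.70 and 0.76. Over all 10707 tested genes with neighbours, Pearson's values were 0.26, 0.32, 0.32 and 0.26 and Spearman's 0.49, 0.41, 0.47 and 0.41. The points of a clone share its library and the WT mean, and members near each other share neighbours, so these values are descriptions. For the 76 mitochondrial ribosomal protein genes Pearson's values were 0.81, 0.51, 0.64 and 0.74. By complex, complex III departed from the rest: its 10 members had Pearson's values of 0.57, 0.35, 0.75 and -0.35 in KO1 to KO4. In the other complexes the values ran from 0.66 (complex V in KO3) to 1.00 (complex II in KO1, 4 members). Members whose neighbours lay more than 0.3 below WT numbered 19 in KO1 and had a median of -0.66, the 8 with neighbours more than 0.3 above had a median of 0.39, and the 54 between had -0.05. In KO2 the 66 members between had a median of -0.22, while the corresponding 9062 genes of the whole set had a median of -0.00. The median of member minus neighbours was -0.08, -0.18, -0.13 and -0.07 for KO1 to KO4, against -0.00091 to 0.0016 for all genes. What part of the members' differences belongs to the neighbouring regions was not tested further.

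**Figure D5:**
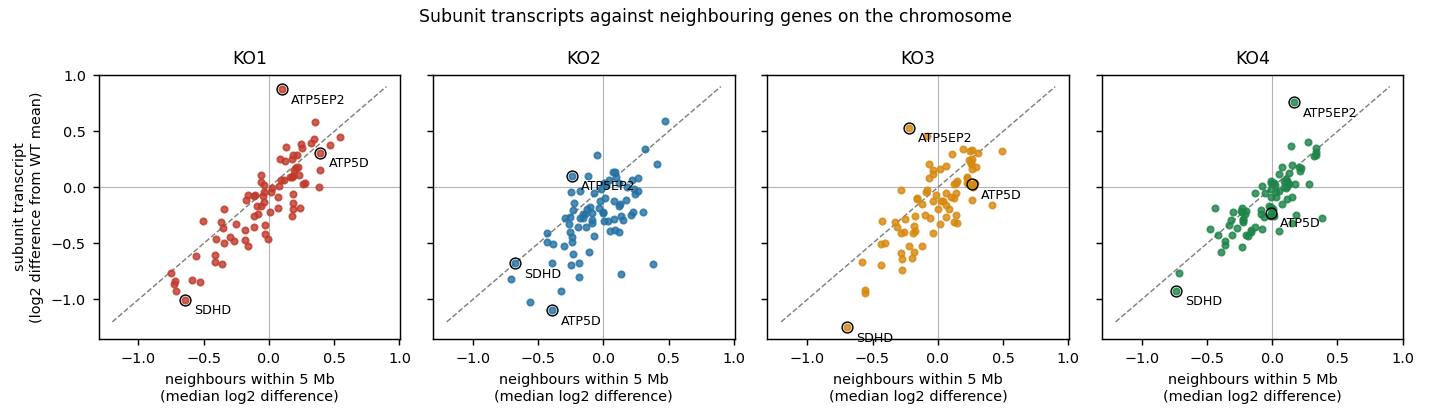
Difference of 80 of the 81 tested members from the WT mean (vertical axis, log2) against the median difference of the other tested genes within 5 Mb (horizontal axis, log2), in 1 panel per clone; the dashed line marks equal values and ATP5EP2, ATP5D and SDHD are ringed. Points follow the line in each clone, least closely in KO2, and lie more often below it, and ATP5EP2 is above it in all 4. The members of complex III do not follow it in KO4 (Pearson's value -0.35).

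Other mitochondrial gene lists were read from the same fit. Of all tested genes, 53.0% had a mean below WT. At an unadjusted p under 0.05 (limma), 8.59% of all tested genes were lower and 7.13% higher. The 13 subunits encoded in mitochondrial DNA, among them the catalytic core of complex IV, had a median difference of -0.42, with 12 of 13 below WT. None passed (limma), and 2 were lower and 1 higher at an unadjusted p under 0.05. By library, their median was -0.29, -0.68, 0.29 and -0.69 in KO1 to KO4 and 0.31, -0.30 and -0.02 in WT1 to WT3, so that WT libraries differed among themselves and KO1 and KO3 lay within their range. MT-ND6, the member on the opposite strand of mitochondrial DNA, was at 6.16 to 6.5 in WT and 6.53 to 7.19 in the clones. MT-ND3 was at 10.3 to 10.6 in WT and 9.72 to 10.3 in the clones. For the nuclear members the clones' medians lay below the range of the WT medians, but that of KO1 was within it once library medians were set equal, as given above.

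Among 51 assembly factors none passed (limma). At an unadjusted p under 0.05, 5 were lower and 1 higher, against 8.59% and 7.13% of all genes. The mean was below WT in 30 (58.8%, against 53.0% of all genes), and the median was -0.06. The lowest p belonged to COX20, a chaperone for complex IV, at 3.15 to 3.18 in WT and 2.11 to 2.62 in the clones (-0.79 ± 0.15 SE, limma adjusted p = 0.0827). FOXRED1, a complex I assembly factor, was next, at -0.73 ± 0.14 (SE). Without 1 library FOXRED1 ran from -0.78 to -0.62, but over all alternatives from -0.78 to -0.09. Of 76 mitochondrial ribosomal proteins none passed (limma; 11 lower and 3 higher at an unadjusted p under 0.05). Below WT were 50 (65.8%), and the median was -0.09. MRPL48 and MRPL45, both of the large subunit, were at -0.60 ± 0.14 and 0.44 ± 0.13 (SE). In 18 genes of the tricarboxylic acid cycle and pyruvate entry the median was -0.17 and 15 (83.3%) were below WT. None passed (4 lower and 2 higher at an unadjusted p under 0.05), and DLAT, of the pyruvate dehydrogenase complex, was lowest at 4.66 to 4.76 in WT and 3.86 to 4.20 in the clones (-0.72 ± 0.11 SE, limma adjusted p = 0.0568). With the neighbours' medians subtracted DLAT was at -0.02. OGDH, of the oxoglutarate dehydrogenase complex, was at 0.34 ± 0.09 (SE).

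Of 21 electron and membrane carriers, 1 passed, where 0.412% of all genes did. SLC25A5, the adenine nucleotide translocator that exchanges ADP for the ATP made by complex V, was at 8.82, 8.87 and 8.86 in WT and at 8.27, 8.02, 8.16 and 8.07 in the clones (-0.72 ± 0.10 SE, limma adjusted p = 0.0391). The call ended without WT1, WT2, WT3 or KO4 (limma adjusted p 0.219, 0.315, 0.213 and 0.0833), with median centring (0.0627), without the variance trend (0.0560) and with the neighbours' medians subtracted, where the log2 fold change was -0.35 (0.190). SLC25A3, the phosphate carrier, was at 6.30 to 6.34 in WT and 5.82 to 6.07 in the clones (-0.42 ± 0.10 SE, limma adjusted p = 0.134). The median of the list was -0.06.

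None of 15 regulators of mitochondrial genes passed (limma; 3 lower and 0 higher at an unadjusted p under 0.05). At that level 8.59% of all genes were lower and 7.13% higher. NRF1 was at 2.38 to 2.55 in WT and 2.30 to 2.90 in the clones, and YY1 at 4.25 to 4.39 and 4.27 to 4.40. GABPA, the ETS factor of respiratory genes, was at 1.86 to 2.04 in WT and 1.47 to 1.78 in the clones (-0.39 ± 0.14 SE, limma adjusted p = 0.239), and TFB1M, a mitochondrial rRNA methyltransferase, was at -0.38 ± 0.13 (SE). The groups did not overlap in GABPA. Its log2 fold change ran from -0.46 to -0.34 without 1 library, but from -0.46 to -0.04 over all alternatives. The list's median was -0.05.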

How the data were processed

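Total RNA of BHT-101 cells was column-purified and made into TruSeq libraries, per the labels' protocols. The authors deposited log2 RPKM, 1 table of 13142 genes by 7 libraries. Per the submitters' processing notes, HTSeq 0.11.2, STAR 2.5.3a, Trim Galore 0.4.1 and edgeR were used on hg38; the gene annotation, strand and prior count are not given in the sources used here. Depth is unknown: no totals are in the table, and too few genes share a lowest value (7) to recover reads, so no count test was run.

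Genes above log2 RPKM 0 in at least 3 libraries (11154) were fitted with limma 3.58.1 in R 4.3.3, with a variance trend, no pseudocount and no rescaling, and p-values were adjusted over all of them by the Benjamini-Hochberg method. KO was compared with WT over the 4 clones, and each clone with WT. P-values reflect the spread between 3 WT cultures and between 4 clones. Positions and exon overlaps came from GENCODE release 29 (hg38), found for all 83 members, older ATP5 symbols being matched through RefSeq synonyms. Promoters came from RefSeq (GRCh38.p14). Sharing of exons, roles within complexes, neighbours within 5 Mb and comparison lists (assembly factors, mitochondrial ribosomal proteins, mitochondrially encoded subunits, tricarboxylic acid cycle, regulators, carriers) are descriptions without a set test. Members, lists and rules were chosen with earlier results of these data known, and roles within complexes after the values were seen. Members named in detail are those called, the 4 smallest p-values and the extremes of level in each complex, the 3 farthest from WT on either side in each clone, all of complex II, members below the filter, and 2 genes per list; other members named were chosen after their values were seen. The values of 1 member are not reported here and it is left out of the plots.

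Tested on simulated data with 100 genes changed by 1 and 100 by 2 log2 units, the KO against WT fit recovered 57% and 88% with 6 false calls, and a single clone against WT 50% and 84% with 2. The simulated single clone was given the spread of the WT libraries, the assumption called doubtful above, and genes were drawn independently. The single-clone figures hold only under that assumption, and shifts shared by neighbouring genes were not simulated. Samples with the same number did not deviate together (correlations 0.06, 0.07 and -0.01), so numbers were not treated as pairs. Alternatives covered the filter, scaling, pseudocount, variance trend, position centring, a replicate block and leaving out each library.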

Additional observations from a re-analysis of the deposited data

Results flagged for a closer look

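The clone values of 83 members and the medians of the 5 complexes, 88 sets in all, were examined for 1 clone far from the others. In 3 of the 88 sets a clone stood apart by more than Dixon's critical value, a share no higher than the 1 in 20 or so that chance gives. The 3 are listed as descriptions. In NDUFA8, KO3 was at log2 RPKM 5.70 while the other clones were at 6.17 to 6.23. In NDUFAB1, the mitochondrial acyl carrier protein held in complex I, KO1 was at 5.83 and the others at 6.24 to 6.25. In NDUFS3, a core subunit of complex I, KO2 was at 3.94 and the others at 4.14 to 4.15. The neighbours of NDUFAB1 on chromosome 16 had medians of -0.42, 0.21, 0.14 and -0.01 in KO1 to KO4, and those of NDUFA8 on chromosome 9 had 0.46, 0.32, -0.04 and 0.27. Those of NDUFS3 on chromosome 11 had 0.07, 0.12, -0.00 and 0.01, highest in KO2, where NDUFS3 was lowest. The part of these regions in the values was not tested.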

How the results depend on the processing

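The 2 calls rest on few libraries. Without 1 library in turn, 0 to 2 members passed for KO against WT: 0 without any 1 of WT1, WT2, WT3 or KO4, 1 without KO1 and 2 without KO2 or KO3. Without the variance trend 1 passed, ATP5L, and with position centring 0. With the replicate block 0 passed, and over all genes 0. KO4 is the only library with its replicate number, so the block takes it up and the log2 fold changes equal those without KO4. Over all genes 46 passed, 114 with quantile normalization (50 lower, 64 higher), 1 with position centring, and 0 to 248 without 1 library: 0 without any WT library, 1 without KO4, 88 without KO3 and 248 without KO2. Both calls kept their direction in every alternative, from -1.06 to -0.27 for SDHD and from -0.93 to -0.29 for ATP5L. For single clones, position centring left 11 calls in KO1, 14 in KO3 and 4 in KO4, and the fit without the variance trend 8 in KO4. Leaving out 1 WT library gave 13 to 40 calls in KO1, 12 to 39 in KO2, 8 to 32 in KO3 and 2 to 29 in KO4, lowest without WT2 and highest without WT3. The median of complex V was -0.16 with quantile normalization, -0.16 with position centring and -0.26 to -0.20 without 1 library. Of the 81 members, the sign turned in 18 with position centring, 7 with quantile normalization, 4 with median centring, 6 with the replicate block and 1 to 9 without 1 library. All 7 turns with quantile normalization and all 4 with median centring went from below to above. The members below WT, 60 in the main fit, then numbered 53 and 56. They numbered 66 with position centring and 57 to 64 without 1 library. The matching share of all genes is not given for these settings. Among genes named here, position centring turned NDUFA12 (0.0199), NDUFA5 (0.0521), ATP5O (0.0098), NDUFA8 (-0.0017), NDUFB6 (-0.16), NDUFB9 (-0.0038), NDUFA4 (-0.10), COX4I1 (-0.15), COX6C (-0.15), ATP5H (-0.13), SDHA (-0.20) and YY1 (-0.11). Quantile normalization turned SDHB (0.01), ATP5E (0.0223), ATP5G1 (0.0525) and COX6B1 (0.10), and median centring ATP5G1 (0.0080) and COX6B1 (0.0305). The replicate block, with the log2 fold changes of the fit without KO4, turned SDHA (-0.0035) and COX6C (-0.0846). It ended the call of SLC25A5 (limma adjusted p = 0.291). The numbers pair no samples. Without 1 library ATP5D ran from -0.43 to 0.0366, COX6A1P2 from -0.44 to 0.01, SDHA from -0.0035 to 0.10, SDHB from -0.11 to 0.0235, ATP5E from -0.16 to 0.0494, ATP5G1 from -0.0591 to 0.0281, COX4I1 from -0.0528 to 0.0810, COX6B1 from -0.12 to 0.0973, COX6C from -0.0846 to 0.13, NDUFA4 from -0.0515 to 0.0567, NDUFS7 from -0.16 to 0.13 and YY1 from -0.0187 to 0.0552. DLAT passed with quantile normalization (limma adjusted p = 0.0467), a pseudocount of 0.5 (0.0473), and without KO2 (0.0438) or KO3 (0.0376). Where the setting itself does not show it, the cause was not tested. Depth is unknown, so counting error was not separated from the spread between libraries.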
